A study of Homo sapiens with 12 samples.

Results

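Class I antigen presentation was followed through 9 genes, chosen by symbol from the gene column of the 12 count tables out of 16384 genes listed. They were the heavy chains HLA-B, HLA-C and HLA-E, their light chain B2M, the peptide transporter subunits TAP1 and TAP2, the loading factor tapasin (TAPBP), and the immunoproteasome subunits PSMB8 and PSMB9. All 9 were present and all 9 passed the filter on low counts, as did 12645 genes in all. Class I molecules show short peptides at the cell surface. The proteasome cuts proteins into peptides, TAP carries these into the endoplasmic reticulum, tapasin holds empty class I molecules next to TAP, and a heavy chain that has bound B2M and a peptide travels to the surface, where cytotoxic T cells read it. HLA-E presents leader peptides of other class I chains to receptors of natural killer cells. Interferons and NF-kB induce most of these genes, and tumour cells with little class I can escape T cells.

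RNA was measured in MDA-MB-231, an established line from a triple-negative breast cancer, labelled wild type in genotype. Cells received both agents (Combination), 25 µmol/L JQ1, 10 µmol/L CAR, or DMSO as vehicle, with 3 libraries per group. JQ1 is an inhibitor of the BET bromodomain proteins, and CAR is cardamonin, per the series title, a plant chalcone. The labels give no time of exposure, each agent was used at 1 dose, and the labels do not say whether the 3 libraries of a group are separate cultures. The p-values therefore reflect library-to-library spread alone, part or all of which could be technical.

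Libraries held 17449715 to 19754456 counts each. Levels are normalised CPM, a gene's counts divided by the effective library size (the total times its TMM scaling factor) on the usual CPM scale. Changes are log2 fold changes ± SE, called at an adjusted p under 0.05 over all genes tested. The line's markers VIM, CD44 and EGFR were high in all groups, with sums of 1630 to 1720 CPM in Combination, 1960 to 1980 in JQ1, 3330 to 3370 in CAR and 3190 to 3250 in DMSO. VIM averaged 560 CPM in Combination and 886 in JQ1 against 2109 in DMSO, and CD44 620 and 596 against 735. EGFR was higher, at 503 and 480 against 380. ESR1, PGR, CDH1 and EPCAM, taken as low or absent in the line, summed to 2.67 to 3.78 CPM in Combination and 3.15 to 3.61 in JQ1. Their sums were 13.3 to 15.6 CPM in CAR and 16.3 to 16.8 in DMSO, mostly EPCAM. The leukocyte marker PTPRC stayed at or under 0.0591 CPM in every library. Of 5 leukocyte markers 3 were listed in the tables, and CD74, the class II invariant chain, made up nearly all of their sum. That sum was 140.0 to 147 CPM in Combination, 118 to 129 in JQ1, 86.2 to 91.5 in CAR and 135 to 146 in DMSO. Of the 3 fibroblast markers PDGFRB made up most, and the list summed to 42.6 to 43.4 CPM in Combination, 99.4 to 99.7 in JQ1, 18.3 to 21.0 in CAR and 37.1 to 39.1 in DMSO, the same order of groups as found below for HLA-B, HLA-C and B2M. PDGFRB averaged 40.3 ± 0.503 CPM in Combination, 96.5 ± 0.527 in JQ1, 14.2 ± 0.758 in CAR and 31.2 ± 1.56 in DMSO (SD, n = 3 each). COL1A1, in contrast, averaged 2.58 ± 0.166, 3.04 ± 0.529, 5.64 ± 0.655 and 7.10 ± 0.475 CPM in the same order of groups, and DCN reached at most 0.177 CPM in any library. The part of these markers in those results was not tested. The 3 endothelial markers summed to at most 0.472 CPM in Combination, 0.641 in JQ1, 0.468 in CAR and 1.13 in DMSO. Combination replicate 1 held transcripts typical of liver, with all 10 liver markers above 3 counts and a sum of 160.0 CPM, against 1.28 to 3.57 CPM in the other libraries. DMSO replicate 3 stood apart from the other DMSO libraries, with a chi-square per degree of freedom of 10.6 and 12.6 against them, against 1.46 to 2.31 for every other pair of libraries of 1 group. In that library the members lay at 0.895 to 1.15 times the mean of the other DMSO libraries. Leaving out either of these libraries changed no call of these 9 genes between groups. The interaction described below for HLA-E was lost without Combination replicate 1 (adjusted p = 0.0827), and likewise without DMSO replicate 1, CAR replicate 2 or 3, JQ1 replicate 1 or 2, or Combination replicate 2 (adjusted p = 0.0633 to 0.103). A lower level in such bulk RNA cannot tell fewer cells with a transcript from less RNA per cell, and total RNA per cell was not measured.

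Upstream sequences were taken from RefSeq (GRCh38.p14), which held windows for 8 of the 9 genes and 10 starts in all. No window was available for HLA-E, so its upstream letters were not read. HLA-B, HLA-C and B2M are shown because their RNA moved in the same directions in every comparison of the groups described next. Each is printed from 250 bases before the start to the edge of the annotated untranslated region, and capitals mark, on either strand, GAA or GAAA followed by any 2 bases and GAAA (the letters of interferon-response elements), GGGA followed by any 4 bases and CC (NF-kB type), and ATTGG (Y box type). Overlapping matches run together.
HLA-B, chr6:31357189-31357429, minus strand: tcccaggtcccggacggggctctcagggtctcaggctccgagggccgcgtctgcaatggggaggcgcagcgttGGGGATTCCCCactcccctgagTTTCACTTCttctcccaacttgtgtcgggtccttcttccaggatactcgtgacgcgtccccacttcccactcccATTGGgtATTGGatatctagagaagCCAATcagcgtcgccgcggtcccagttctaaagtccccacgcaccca
HLA-C, chr6:31272106-31272342, minus strand: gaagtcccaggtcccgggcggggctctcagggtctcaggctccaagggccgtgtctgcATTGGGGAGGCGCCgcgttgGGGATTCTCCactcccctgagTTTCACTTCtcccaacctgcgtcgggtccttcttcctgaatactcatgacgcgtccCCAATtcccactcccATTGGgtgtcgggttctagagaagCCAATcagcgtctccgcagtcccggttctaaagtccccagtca
B2M, chr15:44711267-44711486, plus strand: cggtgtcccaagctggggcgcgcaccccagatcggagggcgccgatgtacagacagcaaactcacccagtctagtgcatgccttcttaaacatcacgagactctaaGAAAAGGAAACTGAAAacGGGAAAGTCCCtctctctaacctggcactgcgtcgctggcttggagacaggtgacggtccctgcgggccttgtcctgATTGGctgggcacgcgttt
The upstream windows of TAP1, TAP2 and tapasin also held the GAA-type letters, although RNA of these genes did not follow the heavy chains. The stretches around them are given with the matches in capitals.
TAP1, chr6:32853818-32853843, minus strand: gccgcTTTCGATTTCGCTTTCcccta
TAP2, chr6:32838783-32838808, minus strand: gctgggGAAGCGAAAGCGAAAgctgc
TAPBP, chr6:33314079-33314104, minus strand: ttggagGAAAGTGAAAGTGAAAggag
GAAA, any 2 bases and GAAA, on either strand, was found in 4 of the 10 windows, against 3.02% of the 35116 RefSeq windows of 250 bases, and GAANNGAAA in 3 of 10, against 6.56%. GGGA, any 4 bases and CC was in 5 of 10 windows (22.6% of all) and ATTGG in 5 of 10 (32.0% of all). TGACG, the core of X box and CRE sites, was in 6 of 10 (21.2% of all). TGACNNNGC, the core of antioxidant response elements, was in 1 of 10, upstream of PSMB9 (10.9% of all). GGGCGG was in 6 of 10 (42.6% of all). The windows of PSMB8 and PSMB9 held neither GAA-type pattern. The patterns were chosen with these windows in view, some overlap each other, and a match is a description of letters, not of binding.

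The heavy chains HLA-B and HLA-C and the light chain B2M were lower in CAR, higher in JQ1 and higher in Combination than in DMSO, while HLA-E was higher in all of the drug groups. The largest of these changes was that of HLA-E in Combination, 2.55-fold. Against JQ1 alone, Combination lowered HLA-B, HLA-C and B2M and raised HLA-E. The transporter and loading genes did not follow: TAP2 and TAPBP fell in Combination and in JQ1, and the immunoproteasome subunit PSMB8 fell 6.06-fold in Combination. The plot of levels by library shows these patterns for each gene.

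**Figure D1:**
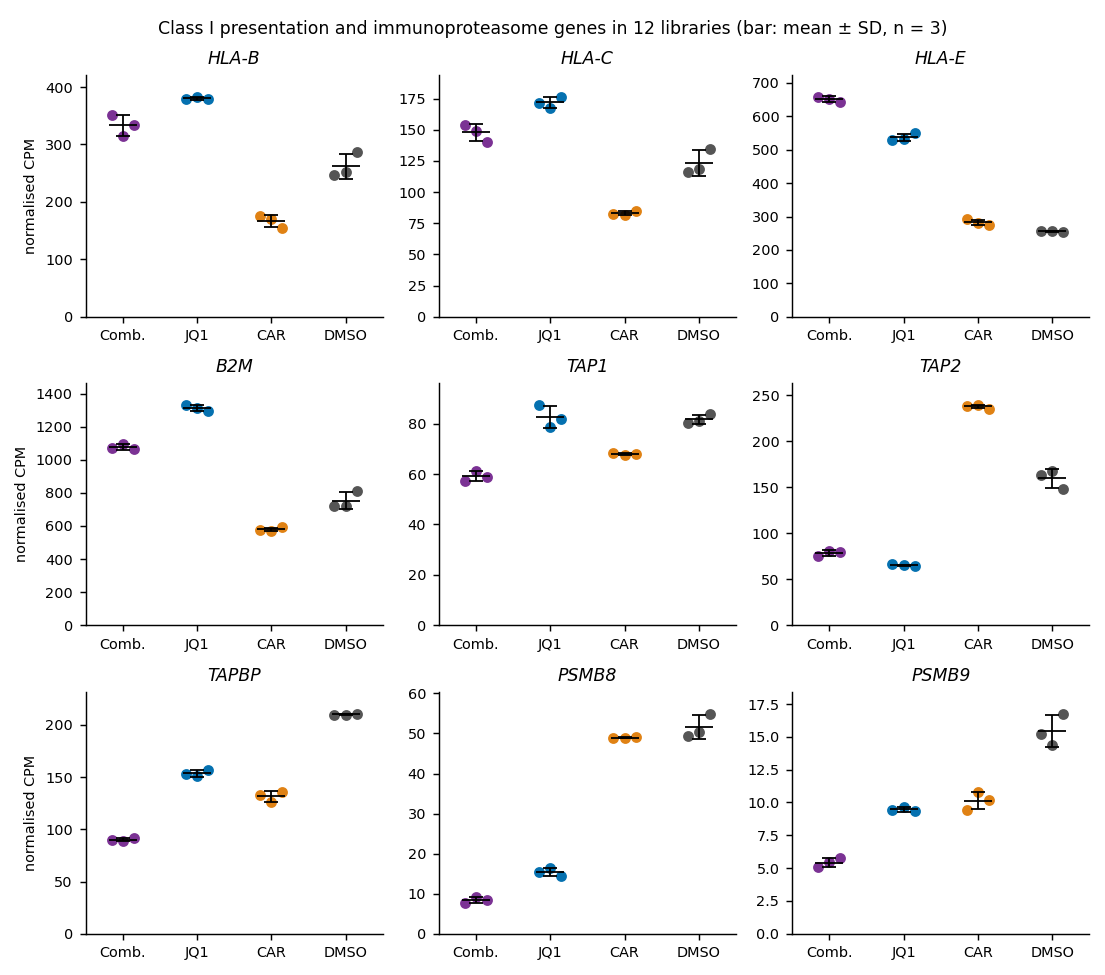
Normalised CPM (vertical axes, from 0) of the 9 genes in each of the 12 libraries, by group. Coloured points are libraries and black bars the mean ± SD of 3. HLA-E lies at 644 to 659 CPM in Combination against 253 to 258 CPM in DMSO, and PSMB8 at 7.80 to 9.24 CPM in Combination against 49.3 to 55.0 CPM in DMSO.

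HLA-B, a classical heavy chain that binds peptides for T cells, had 352, 315 and 334 CPM in the Combination libraries, 379, 383 and 379.7 in JQ1, 175, 170.4 and 155 in CAR, and 246, 252 and 287 in DMSO. No group overlapped another, with JQ1 highest and CAR lowest. HLA-B fell 1.57-fold in CAR (log2 -0.65 ± 0.06, adjusted p = 1.25e-08) and rose 1.45-fold in JQ1 (0.54 ± 0.05, adjusted p = 2.27e-08) and 1.27-fold in Combination (0.35 ± 0.06, adjusted p = 8.59e-06), each against DMSO. Combination was 1.14-fold lower than JQ1 (log2 -0.19 ± 0.05, adjusted p = 0.00667) and higher than CAR by log2 1.0 ± 0.06. The rise in Combination was smaller with total count scaling, 0.14 (adjusted p = 0.0273), a scaling under which the median of all genes in this comparison lay at -0.21.

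HLA-C, the other classical heavy chain here, had 154, 149 and 140.4 CPM in Combination, 172, 168 and 177 in JQ1, 82.4, 81.7 and 85.1 in CAR, and 116, 119 and 135 in DMSO. The order of the groups was that of HLA-B, again without overlap. HLA-C fell 1.49-fold in CAR (log2 -0.57 ± 0.05), rose 1.39-fold in JQ1 (0.48 ± 0.05) and rose 1.20-fold in Combination (0.26 ± 0.05, adjusted p = 5.58e-05). The call in Combination was lost with total count scaling (log2 0.05, adjusted p = 0.323). HLA-B and HLA-C are close paralogs in chromosome 6 of GRCh38 (31269491 to 31357188 and 31268749 to 31272130, both on the minus strand in GENCODE v29, where the spans overlap), and the authors' counting may have split or dropped reads that fit both. The alleles of the line can differ from the reference, so their levels against other genes are uncertain. The line is the same in all groups.

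B2M, the invariant light chain encoded on chromosome 15 (44711487 to 44718877, plus strand), was the most abundant of the 9 genes. Its levels were 1074, 1097.5 and 1064 CPM in Combination, 1330.2, 1315 and 1292 in JQ1, 575, 572 and 592 in CAR, and 719.9, 723 and 811 in DMSO. The 4 groups did not overlap and had the same order as for HLA-B and HLA-C. B2M fell 1.30-fold in CAR (log2 -0.37 ± 0.04), rose 1.75-fold in JQ1 (0.81 ± 0.04, adjusted p = 3.37e-14) and rose 1.44-fold in Combination (0.52 ± 0.04), and Combination was 1.22-fold lower than JQ1 (-0.28 ± 0.04, adjusted p = 4.74e-06). With total count scaling the rise in Combination was 0.31 (adjusted p = 3.69e-07).

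HLA-E (chromosome 6, 30489467 to 30494205, plus strand) had 659, 653 and 644 CPM in Combination, 529.8, 533 and 549.6 in JQ1, 292, 280.0 and 276 in CAR, and 258, 256 and 253 in DMSO. Here Combination was the highest group and DMSO the lowest, again with no overlap. HLA-E rose 2.10-fold in JQ1 (log2 1.07 ± 0.03, adjusted p = 1.46e-17) and 2.55-fold in Combination (1.35 ± 0.03, adjusted p = 2.48e-19), and Combination was 1.21-fold higher than JQ1 (0.28 ± 0.03, adjusted p = 6e-07). The difference of CAR from DMSO was small, 1.11-fold (0.15 ± 0.03, adjusted p = 0.00118), and its call was lost with total count scaling (log2 0.08, adjusted p = 0.0503).

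Heavy chain reads were set against light chain reads within each library, a ratio that no library scaling can move. The summed counts of HLA-B, HLA-C and HLA-E were 1.09, 1.02 and 1.05 times those of B2M in Combination, 0.812, 0.824 and 0.856 in JQ1, 0.956, 0.930 and 0.870 in CAR, and 0.862, 0.867 and 0.832 in DMSO. Combination lay above each other group without overlap, and JQ1 overlapped DMSO. On the log2 scale Combination was higher than DMSO by 0.30 and higher than JQ1 by 0.34. With 3 libraries against 3, the exact two-sided permutation test cannot go below p = 0.1, the value it gave in both cases (0.115 adjusted over 15 such tests). HLA-E had a longer principal transcript than HLA-B and HLA-C, 2601 bases against 1547 and 1536, so it weighs more in this ratio of reads than in a ratio of molecules. In Combination against DMSO, HLA-E rose more than B2M (log2 1.35 against 0.52), while HLA-B (0.35) and HLA-C (0.26) rose less. In Combination against JQ1, HLA-E rose (0.28), and HLA-B (-0.19) and HLA-C (-0.22) fell less than B2M (-0.28). The ratio of HLA-B and HLA-C to B2M without HLA-E was not tested.

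TAP1 and TAP2 encode the paired subunits of the peptide transporter, and their RNA diverged. TAP1 had 57.4, 61.4 and 58.9 CPM in Combination, 87.4, 78.8 and 81.7 in JQ1, 68.5, 67.5 and 68.0 in CAR, and 80.4, 81.1 and 83.7 in DMSO. JQ1 libraries overlapped those of DMSO, and Combination lay below all others. TAP1 fell 1.20-fold in CAR (log2 -0.27 ± 0.05, adjusted p = 3.91e-05) and 1.38-fold in Combination (-0.47 ± 0.05, adjusted p = 5.01e-09). In JQ1 it did not pass the test (0.02 ± 0.04, adjusted p = 0.752). That value turned to -0.04 with upper-quartile scaling, to -0.10 with total count scaling, where it passed (adjusted p = 0.0383), and to -0.03 without JQ1 replicate 1.

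TAP2 had 75.4, 80.4 and 79.9 CPM in Combination, 66.0, 65.1 and 64.3 in JQ1, 239, 239 and 236 in CAR, and 163, 168 and 148 in DMSO. CAR was the highest group and JQ1 the lowest, without overlap. TAP2 rose 1.49-fold in CAR (log2 0.58 ± 0.04, adjusted p = 3.31e-10), fell 2.45-fold in JQ1 (-1.29 ± 0.05, adjusted p = 9.05e-17) and fell 2.03-fold in Combination (-1.02 ± 0.05). Adding CAR to JQ1 raised it 1.21-fold (0.27 ± 0.05, adjusted p = 8.1e-05). Adding JQ1 to CAR lowered it 3.03-fold (-1.60 ± 0.05).

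Tapasin (TAPBP, chromosome 6, 33299694 to 33314387, minus strand), which bridges TAP and empty class I molecules, was lowered by each agent. Its levels were 89.9, 88.5 and 91.6 CPM in Combination, 153, 151 and 157 in JQ1, 133, 126 and 136 in CAR, and 209.9, 209.6 and 211 in DMSO. All drug groups lay below DMSO and Combination below the single agents. TAPBP fell 1.60-fold in CAR (log2 -0.67 ± 0.04), 1.37-fold in JQ1 (-0.45 ± 0.04) and 2.33-fold in Combination (-1.22 ± 0.04, adjusted p = 9.93e-18). It was also 1.71-fold lower in Combination than in JQ1 (-0.77 ± 0.04).

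PSMB8 and PSMB9 replace constitutive catalytic subunits of the proteasome and change which peptide ends it makes. PSMB8 had 7.80, 9.24 and 8.49 CPM in Combination, 15.5, 16.3 and 14.5 in JQ1, 48.8, 49.0 and 49.0 in CAR, and 49.3, 50.5 and 55.0 in DMSO. The JQ1 and Combination libraries lay far below the others, and CAR lay just under DMSO. PSMB8 fell 3.34-fold in JQ1 (log2 -1.74 ± 0.06, adjusted p = 1.46e-16) and 6.06-fold in Combination (-2.60 ± 0.07, adjusted p = 9.01e-19), and was 1.81-fold lower in Combination than in JQ1 (-0.86 ± 0.09, adjusted p = 3.82e-08). In CAR it did not pass (-0.08 ± 0.05, adjusted p = 0.236), though it did with total count scaling (-0.14, adjusted p = 0.0318).

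PSMB9 was the least abundant member, with 5.08, 5.46 and 5.74 CPM in Combination, 9.44, 9.67 and 9.32 in JQ1, 9.45, 10.8 and 10.2 in CAR, and 15.2, 14.3 and 16.8 in DMSO. The single agents lay together between DMSO and Combination. PSMB9 fell 1.52-fold in CAR (log2 -0.61 ± 0.08), 1.63-fold in JQ1 (-0.71 ± 0.08) and 2.85-fold in Combination (-1.51 ± 0.09, adjusted p = 1.46e-12). In GENCODE v29 its span (chromosome 6, 32844136 to 32859585, plus strand) overlaps TAP1 (32845209 to 32853978) and PSMB8 (32840717 to 32844703) on the minus strand. Whether the counting used strand is not stated, so reads of these neighbours cannot be told apart where they overlap.

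PSMB8 and PSMB9 take the places of PSMB5 and PSMB6. PSMB5 averaged 86.0 ± 1.83 CPM in Combination, 83.0 ± 2.62 in JQ1, 123 ± 1.67 in CAR and 97.9 ± 6.20 in DMSO (SD, n = 3 each). PSMB8 counts were 0.0899, 0.110 and 0.0971 times those of PSMB5 in Combination, 0.180, 0.201 and 0.178 in JQ1, 0.400, 0.392 and 0.400 in CAR, and 0.504, 0.550 and 0.528 in DMSO. The 4 groups did not overlap in this ratio, and the differences from DMSO were -2.42 in Combination, -1.50 in JQ1 and -0.41 in CAR on the log2 scale.

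PSMB9 counts averaged 0.0546 times those of PSMB6 in Combination, 0.110 in JQ1, 0.0654 in CAR and 0.114 in DMSO. Combination and CAR lay below DMSO without overlap, by -1.06 and -0.80 on the log2 scale, while JQ1 overlapped DMSO (-0.06, exact two-sided permutation p = 0.4). Each of the non-overlapping differences in the PSMB8 and PSMB9 ratios had the smallest exact p this design allows, 0.1 (0.115 adjusted over 15 tests). The plot of ratios shows that JQ1 lowered PSMB8 against its counterpart. For PSMB9 the ratios were 0.106, 0.118 and 0.105 in JQ1 and 0.120, 0.111 and 0.111 in DMSO, which overlap only in part. Both PSMB9 and PSMB6 fell in JQ1 against DMSO (log2 -0.71 and -0.65).

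**Figure D2:**
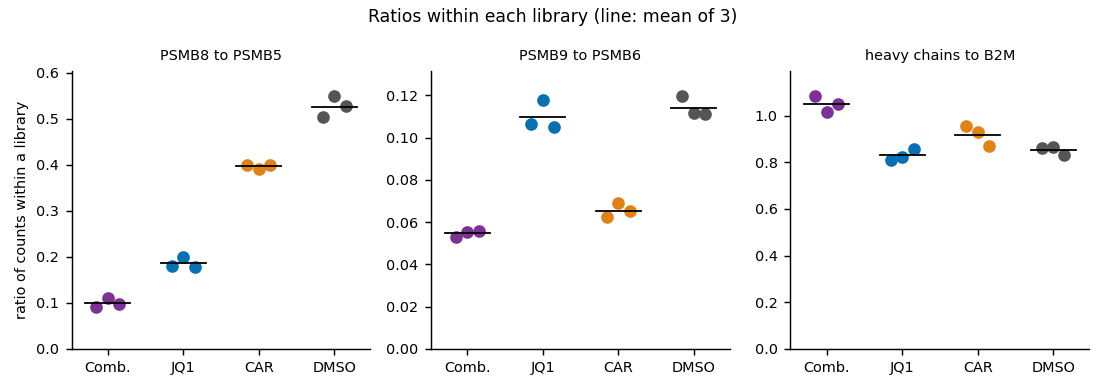
Ratios of read counts within each library (vertical axes, from 0), by group, for PSMB8 to PSMB5, PSMB9 to PSMB6, and the summed heavy chains to B2M. Points are libraries and lines means of 3. The PSMB8 ratio averages 0.0991 in Combination against 0.527 in DMSO, and the PSMB9 ratio 0.0546 in Combination and 0.110 in JQ1 against 0.114 in DMSO.

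Counted together against DMSO, Combination had 4 of the 9 genes higher and 5 lower, where 85.4% of all genes tested were called, 42.6% higher and 42.8% lower. JQ1 had 4 higher and 4 lower (83.7% of all genes called, 41.5% higher and 42.2% lower). CAR had 2 higher and 6 lower (57.3% called, 27.3% higher and 30.1% lower). Combination against CAR gave 4 higher and 5 lower (85.4% called, 42.4% higher and 43.0% lower), and Combination against JQ1 gave 2 higher and 7 lower (51.9% called, 26.0% higher and 25.9% lower). With most genes of these cells called in the JQ1 comparisons, a call alone says little about these 9.

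The median log2 change of the 9 was -0.47 in Combination, 0.02 in JQ1 and -0.37 in CAR, where the medians of all genes were 0.00, -0.01 and -0.02. Values ranged from -2.60 (PSMB8) to 1.35 (HLA-E) in Combination, from -1.74 (PSMB8) to 1.07 (HLA-E) in JQ1, and from -0.67 (TAPBP) to 0.58 (TAP2) in CAR. The comparisons with DMSO share its libraries and so are not independent of each other. In Combination and against CAR the 4 chains of the class I molecule were higher and the 5 genes of peptide supply lower. In CAR against DMSO and in Combination against JQ1 this divide was absent, since HLA-B, HLA-C and B2M were lower and TAP2 higher. In JQ1 against DMSO it held except for TAP1, which was not called (log2 0.02).

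**Figure D3:**
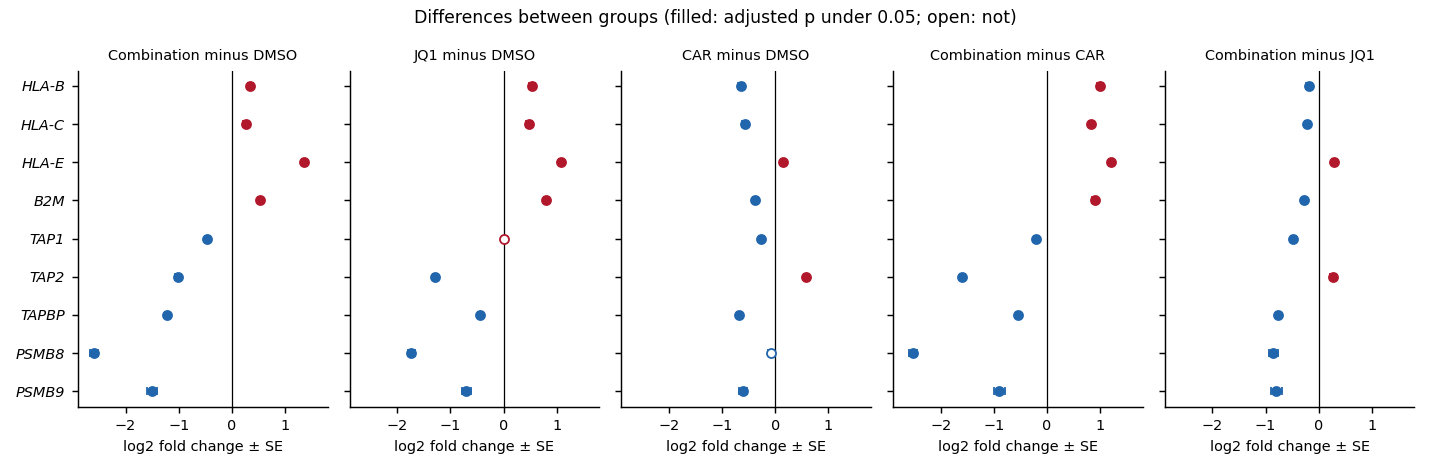
Log2 fold change ± SE (horizontal axis) of each of the 9 genes in 5 comparisons between groups, red above and blue below 0. Filled points passed an adjusted p under 0.05. In Combination minus DMSO the 4 heavy and light chain genes lie above 0 and the 5 others below, while in CAR minus DMSO HLA-E and TAP2 lie above 0.

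Whether both agents together gave the sum of their separate log2 effects was tested with the interaction term, which was called in 6 of the 9 genes, 3 above and 3 below the sum (38.3% of all genes called, 20.1% above and 18.2% below). HLA-B changed by 0.35 in Combination where the sum of the single agents was -0.11, an excess of 0.46 ± 0.08 (adjusted p = 0.000142), and HLA-C by 0.26 where the sum was -0.09, an excess of 0.35 ± 0.07 (adjusted p = 0.000554). For both genes the sum lay slightly below DMSO, a shift that was not tested, and the measured level lay above DMSO. With total count scaling the measured rise of HLA-C was not called (log2 0.05, adjusted p = 0.323). PSMB8 showed the largest departure, -2.60 against a sum of -1.82, a difference of -0.78 ± 0.10 (adjusted p = 4.59e-06).

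TAP2 lay below the sum by -0.31 ± 0.06 (adjusted p = 0.000775) and TAP1 by -0.22 ± 0.07 (adjusted p = 0.0124). HLA-E exceeded it by 0.13 ± 0.05 (adjusted p = 0.0345), a call that was lost in 9 of 17 alternatives, with adjusted p from 0.00228 to 0.103. B2M (0.09 ± 0.06, adjusted p = 0.222), TAPBP (-0.10 ± 0.05, adjusted p = 0.172) and PSMB9 (-0.20 ± 0.13, adjusted p = 0.26) did not pass. B2M and its partners HLA-B and HLA-C thus shared directions against DMSO, but the interaction was called only for the 2 heavy chains, and the difference between B2M and these was not tested.

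**Figure D4:**
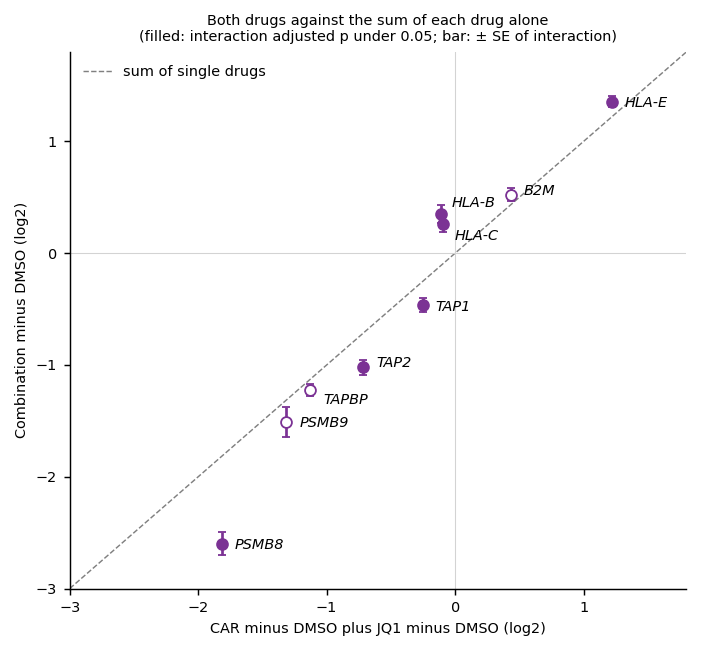
Log2 change in Combination against DMSO (vertical axis) set against the sum of the log2 changes in CAR and in JQ1 (horizontal axis). The dashed line marks equality, filled points have an interaction with adjusted p under 0.05, and bars are ± SE of the interaction. HLA-B and HLA-C lie above the line, and PSMB8 lies farthest below it, at -2.60 against -1.82.

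Levels can be compared between genes only per length, so mean CPM was divided by the kilobases of each gene's principal GENCODE transcript. B2M led in every group, with 632 CPM per kb in Combination, 769.7 in JQ1, 339.9 in CAR and 440.5 in DMSO. In Combination the order below it was HLA-E (251), HLA-B (216), HLA-C (96.2), TAPBP (47.7), TAP2 (31.5), TAP1 (20.01), PSMB8 (7.57) and PSMB9 (6.94). Only the neighbours PSMB8 and PSMB9 overlapped between libraries there. In JQ1 HLA-B (246) stood above HLA-E (207), and TAP1 (27.9) above TAP2 (26.1), with no overlap between neighbours.

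CAR had HLA-E (109) and HLA-B (108) overlapping, followed by TAP2 (95.3), TAPBP (69.7), HLA-C (54.1), PSMB8 (43.5), TAP1 (23.0) and PSMB9 (12.97). In DMSO the order was HLA-B (169), TAPBP (111), HLA-E (98.2), HLA-C (80.3), TAP2 (63.9), PSMB8 (45.9), TAP1 (27.6) and PSMB9 (19.7), with no overlap between neighbours. Between the TAP subunits, TAP2 exceeded TAP1 per kb in Combination, CAR and DMSO, and TAP1 exceeded TAP2 in JQ1. These levels depend on the transcript chosen for each gene.

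Other genes of class I assembly were read from a list of 10, of which 9 were tested. In Combination 5 were higher and 4 lower, in JQ1 3 and 4, and in CAR 2 and 5, each against DMSO, where 85.4%, 83.7% and 57.3% of all genes were called in these comparisons. Their median log2 changes were 0.14, -0.08 and -0.31. The peptide-trimming aminopeptidases fell with JQ1: ERAP2 averaged 3.48 ± 0.423 CPM in Combination and 3.74 ± 0.299 in JQ1 against 15.97 ± 0.673 in DMSO (SD, n = 3 each), and ERAP1 averaged 23.5 ± 1.62 and 25.4 ± 1.53 against 65.4 ± 7.17. TAPBPL, a tapasin relative that edits peptides, fell 2.90-fold in Combination, 2.83-fold in JQ1 and 1.72-fold in CAR. Its levels were low, at 1.17 ± 0.171 CPM in Combination, 1.20 ± 0.119 in JQ1 and 1.97 ± 0.692 in CAR against 3.42 ± 0.363 in DMSO. The chaperone calreticulin (CALR) rose 1.39-fold in Combination and 1.32-fold in JQ1 and fell 1.25-fold in CAR. Calnexin (CANX), which folds new heavy chains, rose 1.49-fold in Combination and 1.45-fold in CAR. SEC61A1, the channel of the endoplasmic reticulum, rose in all 3 drug groups, 1.95-fold in Combination, 1.76-fold in JQ1 and 1.28-fold in CAR. HLA-F, a non-classical heavy chain at 1.03 ± 0.275 CPM in Combination and 0.760 ± 0.266 in CAR against 1.77 ± 0.327 in DMSO, was lower in both.

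The third immunoproteasome subunit, PSMB10, averaged 3.77 ± 0.144 CPM in Combination, 4.48 ± 0.711 in JQ1, 17.9 ± 0.920 in CAR and 16.9 ± 1.42 in DMSO, a 4.47-fold fall in Combination and a 3.75-fold fall in JQ1 (adjusted p = 3.41e-14 and 1.5e-13). PSME1, a subunit of the PA28 activator, rose 1.46-fold in Combination and 1.59-fold in JQ1, while its partner PSME2 was 1.13-fold lower in JQ1 (adjusted p = 0.0135) and not called in Combination. The assembly factor POMP rose 1.30-fold in Combination and 1.39-fold in CAR. The 3 constitutive catalytic subunits PSMB5, PSMB6 and PSMB7 were lower in Combination (log2 -0.19 to -0.57) and in JQ1 (-0.24 to -0.77) and higher in CAR (0.19 to 0.41).

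Of 10 transcription regulators of these genes, 3 were higher and 6 lower in Combination, 1 and 6 in JQ1, and 2 and 3 in CAR, shares called that lay near or below the 85.4%, 83.7% and 57.3% of all genes. The medians were -0.60, -0.56 and -0.11. CIITA, the class II transactivator that also acts on class I promoters, averaged 0.781 ± 0.0833 CPM in Combination, 0.594 ± 0.174 in JQ1, 10.1 ± 0.405 in CAR and 17.03 ± 2.33 in DMSO. It fell 21.6-fold in Combination, 28.4-fold in JQ1 and 1.69-fold in CAR. NLRC5, the class I transactivator, averaged 44.6 ± 0.450 CPM in Combination, 40.3 ± 2.71 in JQ1, 33.3 ± 0.428 in CAR and 38.0 ± 2.76 in DMSO. It was higher in Combination (log2 0.23, adjusted p = 0.00104) and lower in CAR (-0.19, adjusted p = 0.00979).

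NFKB1, which encodes the p50 subunit of NF-kB, fell 2.95-fold in Combination and 2.46-fold in JQ1. IRF1, an interferon-induced factor known to bind interferon-response elements, fell 1.63-fold in Combination and 1.74-fold in JQ1. Its binding to the windows shown above was not measured. RELA rose 1.17-fold in Combination, and RFX5, which binds the X box, was 1.12-fold higher in CAR. The plot of pathway genes sets these values side by side.

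Interferon receptors and their signalling genes were 7 higher and 1 lower in Combination, 7 and 2 in JQ1, and 0 and 7 in CAR, of 11 tested. Of all genes, 42.6% were higher and 42.8% lower in Combination, 41.5% and 42.2% in JQ1, and 27.3% and 30.1% in CAR. The chains of the interferon gamma receptor moved apart: IFNGR1 rose 2.17-fold in Combination and 2.04-fold in JQ1, and IFNGR2 fell 2.93-fold and 2.49-fold. STAT2 averaged 173 ± 2.14 CPM in Combination, 179 ± 4.20 in JQ1, 57.3 ± 3.30 in CAR and 79.9 ± 3.44 in DMSO. JAK1 rose 1.696-fold in Combination and 1.98-fold in JQ1, and fell 1.20-fold in CAR. The medians of the list were 0.22 in Combination, 0.40 in JQ1 and -0.26 in CAR, where those of all genes were 0.00, -0.01 and -0.02.

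**Figure D5:**
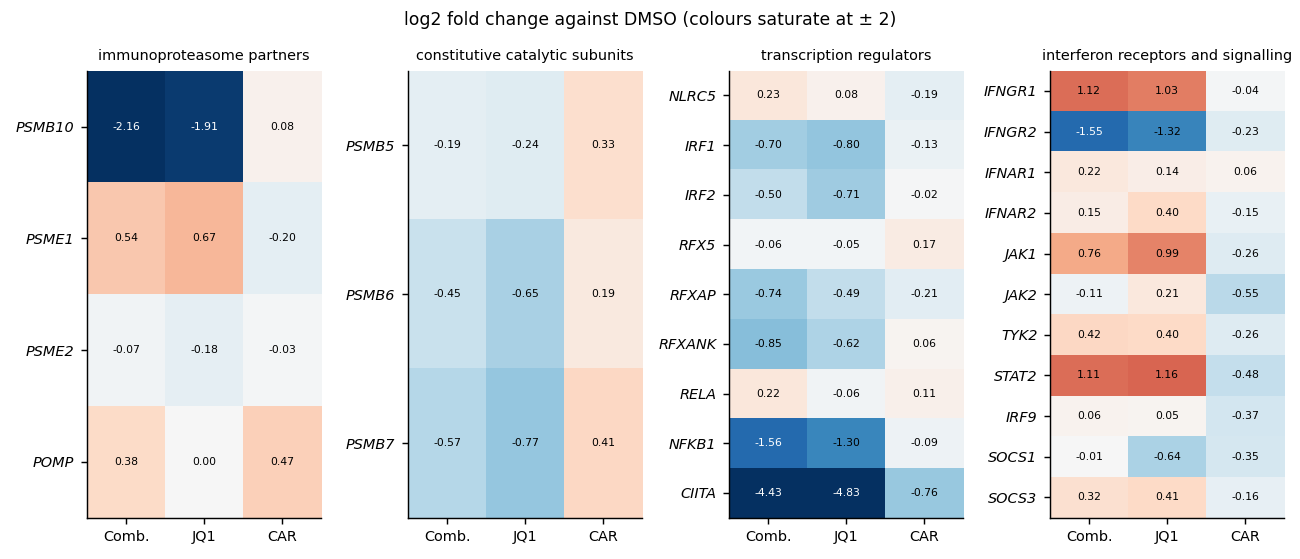
Log2 fold change against DMSO (colour and printed value) in Combination, JQ1 and CAR (columns) for genes of 4 lists (rows), with 1 regulator not shown. PSMB10 and CIITA are at -2.16 and -4.43 in Combination, and IFNGR1 and IFNGR2 at 1.12 and -1.55. Colours saturate at 2 in either direction.

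Ligands of the natural killer receptor NKG2D, another route by which such cells are recognised, were tested for 5 of 6 genes. Combination had 3 higher and 2 lower and JQ1 1 higher and 2 lower than DMSO, where 85.4% and 83.7% of all genes were called. MICA averaged 160 ± 4.90 CPM in Combination, 125 ± 5.03 in JQ1, 71.1 ± 1.29 in CAR and 68.7 ± 2.97 in DMSO, a 2.33-fold rise in Combination and a 1.82-fold rise in JQ1. MICB fell 1.26-fold in Combination and 1.63-fold in JQ1, and ULBP2 fell 1.48-fold and 1.75-fold.

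Since 8 of the 9 genes lie in the MHC region of chromosome 6, the nearest listed genes on either side of each, with BRD2, were read as well, 9 genes of which 7 were tested. In Combination 4 were higher and 1 lower (42.6% and 42.8% of all genes) and in JQ1 5 and 1 (41.5% and 42.2%). BRD2, a BET gene between the TAP1 and TAPBP loci, averaged 1061 ± 7.82 CPM in Combination, 914 ± 17.6 in JQ1, 423 ± 5.81 in CAR and 423 ± 4.16 in DMSO. HLA-DMB, a class II peptide exchange factor on the far side of TAP1, averaged 8.92 ± 0.669, 13.8 ± 1.39, 2.35 ± 0.369 and 4.85 ± 0.218 CPM in the same order of groups. RGL2, the neighbour of TAPBP, fell 1.77-fold in Combination and 1.90-fold in JQ1, and ZBTB22 on the other side rose 1.43-fold and 1.46-fold.

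The genes with the most similar profiles over the 4 group means of log2 CPM, each centred on its own mean, were sought among 10395 genes of at least 5 CPM by Euclidean distance. B2M was nearest to FBXL2 (distance 0.0159), GPD1L (0.0225) and TAF1 (0.0302). TAP1 was nearest to GCC2 (0.02), VCL (0.04) and MYH10 (0.0478), and PSMB9 to SPRY2 (0.045). HLA-C was nearest to GET1 (0.0469), HLA-E to AP4E1 (0.0455), HLA-B to KIAA1328 (0.0647) and TAP2 to MRPL24 (0.0733). PSMB8 and TAPBP had no gene as close, with PLPP4 at 0.142 and ATP2B4 at 0.107. None of the 9 genes had another of the 9 among its 3 nearest. HLA-C was at rank 12 for HLA-B, and HLA-B at rank 17 for HLA-C (distance 0.131). TAPBP was at rank 45 for PSMB9, and PSMB9 at rank 68 for TAPBP (0.297). All other pairs of members were at rank 97 or beyond.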

How the data were processed

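The authors deposited 1 table per library of raw read counts, as whole numbers for each gene symbol. Per the submitters' processing notes, Trimmomatic, HISAT2, HTSeq and the build hg38 were used, and per the labels' protocols libraries came from a stranded mRNA kit on RNA with an integrity number of at least 7. No source used here gives versions, the annotation or the strand setting.

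The tests were run with edgeR 4.0.16 (R 4.3.3), after filterByExpr (minimum count 10, minimum total 15), and with TMM factors (0.921 to 1.08). A robust quasi-likelihood model of the 4 groups was fitted to the 12 libraries together. Residual degrees of freedom were 8, and the common biological coefficient of variation was 0.0408. Benjamini-Hochberg adjustment covered the 12645 genes tested in each comparison. Ratios were tested with scipy 1.17.1. On simulated CAR against DMSO counts of 12484 genes, 100 of 100 genes changed by log2 1 and 98 of 100 changed by log2 0.5 were recovered. Among the unchanged genes 8 were called. The simulation gave every gene the common coefficient of variation and held no outlying library. It therefore does not show recovery at the spread of each real gene. Alternatives were DESeq2 1.42.0, upper-quartile and total count scaling, no filter, a replicate block, fits to 2 groups, and leaving out each library. Genes were named by a rule: the 9 members, up to 3 called genes with the smallest adjusted p per list, comparison and direction, the 3 genes nearest in profile to each member, and the chromosomal neighbours with BRD2. Some genes the rule took are not reported here. Members and lists were chosen with earlier results of these data known.

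Gene positions are from GENCODE v29 (GRCh38), matched by symbol for 15944 of 16384 genes.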

Additional observations from a re-analysis of the deposited data

Results flagged for a closer look

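The effect of JQ1 differed between cells with and without CAR in 6 of the 9 genes, by the interaction term of the edgeR fit. That term was called in 38.3% of all genes tested. JQ1 raised HLA-B by 1.0 with CAR and by 0.54 without it on the log2 scale, a difference of 0.46, and HLA-C by 0.83 and 0.48, a difference of 0.35. For HLA-E the effects were 1.21 and 1.07, a difference of 0.13, whose call was lost in 9 of 17 alternatives. JQ1 lowered PSMB8 with CAR by -2.52 and without it by -1.74, a difference of -0.78, and TAP2 by -1.60 and -1.29, a difference of -0.31. TAP1 changed by -0.20 with CAR and by 0.02 without it, a difference of -0.22. Seen from the other side, CAR changed PSMB8 by -0.86 in cells with JQ1 and by -0.08 in cells without it.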

How the results depend on the processing

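Of 54 tests of the 9 genes, 49 were called, and these tests reuse the same 12 libraries. The share of all genes called was 85.4% in Combination against DMSO and against CAR, and 83.7% in JQ1 against DMSO. It was 57.3% in CAR against DMSO, 51.9% in Combination against JQ1 and 38.3% for the interaction. Across the alternatives 948 values stayed on the same side of the threshold with the same sign, 11 calls were lost and 3 values turned sign. PSMB8 in CAR and TAP1 in JQ1, neither called otherwise against DMSO, passed with total count scaling. The turned values were those of TAP1 in JQ1 against DMSO, -0.044 with upper-quartile scaling, -0.10 with total count scaling, and between -0.026 and 0.054 when single libraries were left out. With total count scaling, 1 member rather than 2 was higher in CAR than in DMSO, and TAP1 in Combination against CAR was -0.34 in place of -0.20. That scaling moved the median of all genes to -0.21 in Combination and -0.13 in JQ1 against DMSO, and -0.15 in Combination against CAR. It gave 2636 higher and 4738 lower genes in CAR against DMSO in place of 3449 and 3801, 4216 and 6501 in Combination against DMSO in place of 5386 and 5415, and 2229 and 4554 in Combination against JQ1 in place of 3292 and 3275. The causes were not tested. Libraries with the same replicate number correlated above 0.1 in 3 of 18 pairs across groups, and those with different numbers in 7 of 36. Such correlations of deviations from means of 3 libraries cannot decide whether the numbers pair the libraries. The replicate number as a block changed no call of a member: 2 were higher and 6 lower in CAR, with 3451 genes higher and 3770 lower overall. PSMB9, at 5 to 17 CPM, has the widest standard errors of the 9.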
